A study of Rattus norvegicus with 57 samples.

Results

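A set of 9 genes linked to the injured or dedifferentiated kidney tubule cell were followed after a single dose of cisplatin: the keratins Krt8, Krt18 and Krt19, vimentin (Vim), Cd44, Cd24, Vcam1, annexin A2 (Anxa2) and Tnfrsf12a. They were chosen by name, with earlier results of these data known. The probe sets taken were those whose platform gene symbol is one of these names. The brightest probe set stood for a gene that had several. All 9 were measured, out of 11683 genes tested, and all 9 lay above the filter on dim probe sets on 57 of 57 arrays. Male Han Wistar rats, 8 weeks old, received 0, 1 or 3 mg/kg cisplatin once by intraperitoneal injection in saline, and the controls received saline alone. Kidneys were taken on days 3, 5, 8 and 26, and a cortex-enriched homogenate of each animal was hybridised to its own Affymetrix expression array. There were 5 rats in each of the 12 groups of dose and day, except 4 in the day 26 control group and 3 in the group given 1 mg/kg and killed on day 5.

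Intermediate filaments give epithelial cells their mechanical strength. Keratin 8 and keratin 18 pair with each other in simple epithelia and are abundant in the distal nephron and collecting duct, keratin 19 is a further keratin of simple and ductal epithelia, and vimentin is the filament protein of mesenchymal cells that regenerating tubule cells also make. CD44 is a receptor for hyaluronan and osteopontin, CD24 is a lipid-anchored surface glycoprotein of immature epithelia, VCAM-1 binds integrins of leukocytes, annexin A2 binds phospholipids at the membrane together with S100A10, and Tnfrsf12a encodes Fn14, the receptor for the cytokine TWEAK. In other kidney injury models these genes are used as marks of tubule cells that have lost part of their specialised state. A homogenate does not show which cells a signal came from. The tissue carried the markers of kidney tubule: in day 8 control rats the mean signal was 3528 for Slc34a1 and 3057 for Lrp2 of the proximal tubule, 2671 for Umod of the thick ascending limb and 1246 for Aqp2 of the collecting duct.

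Krt8 and Krt18 are next to each other among the coding genes of chromosome 7 in the RefSeq annotation of GRCr8. The promoters of these neighbours, whose signals moved together on day 8, are shown with that of Tnfrsf12a, which had the largest change of the 9. Each runs from 250 bases before to 50 bases after the start site, read 5′ to 3′ from RefSeq (GRCr8). Capitals mark matches to AP-1 (TGANTCA), TEAD (GGAATG), SP1 (GGGCGG) or NF-kappaB, searched on both strands.
Krt8, chr7:135010290-135010589, minus strand: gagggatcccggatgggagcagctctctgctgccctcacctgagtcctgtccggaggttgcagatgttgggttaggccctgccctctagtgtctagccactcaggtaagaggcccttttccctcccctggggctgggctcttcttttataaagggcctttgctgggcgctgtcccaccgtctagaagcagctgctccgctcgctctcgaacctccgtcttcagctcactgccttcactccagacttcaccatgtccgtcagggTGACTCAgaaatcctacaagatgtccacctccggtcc
Krt18, chr7:135035918-135036217, plus strand: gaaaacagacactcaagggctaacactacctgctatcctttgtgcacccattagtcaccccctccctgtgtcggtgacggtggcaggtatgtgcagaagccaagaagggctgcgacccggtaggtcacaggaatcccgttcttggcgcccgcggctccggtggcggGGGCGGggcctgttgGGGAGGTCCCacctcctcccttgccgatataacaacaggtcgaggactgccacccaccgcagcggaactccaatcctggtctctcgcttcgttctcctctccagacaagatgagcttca
Tnfrsf12a, chr10:13213599-13213898, minus strand: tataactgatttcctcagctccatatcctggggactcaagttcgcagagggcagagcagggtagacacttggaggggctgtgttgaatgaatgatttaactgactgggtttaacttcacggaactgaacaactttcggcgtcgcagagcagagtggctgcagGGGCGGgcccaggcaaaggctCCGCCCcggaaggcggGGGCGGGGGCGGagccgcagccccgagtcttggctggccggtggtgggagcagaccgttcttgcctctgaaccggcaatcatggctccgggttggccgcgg
The Krt8 window held an AP-1 match and no other, at bases 264 to 270. That match began at base 14 of the part after the start site. In the printed letters it follows an ATG, so it was not in the upstream part. The Krt18 window held an SP1 match at bases 167 to 172 and an NF-kappaB match at bases 182 to 191. The Tnfrsf12a window held 4 SP1 matches, 2 of them next to each other without overlap. Of the 9 genes, 8 had a promoter in the table, and Krt19 did not. AP-1 letters were in 2 of the 8, Krt8 (after the start site) and Anxa2 (before it), against 7.33% of the 33469 promoters in the table. SP1 letters were in 5 of 8, against 33.1% of all promoters, and NF-kappaB letters in 4 of 8 (Vim, Krt18, Cd24 and Vcam1), against 7.51%. TEAD letters were in 1 of 8, Anxa2, against 14.2%. GC content was 59% for Krt8, 60.3% for Krt18 and 61.3% for Tnfrsf12a, with a median of 51.7% over all promoters. It was 62% for Vim, 60.3% for Cd44, 74% for Cd24, 68% for Anxa2 and 50.3% for Vcam1. The SP1 letters are all G or C, and the shares of all promoters were not matched for GC content. The motif counts are therefore no test of enrichment. The neighbours that moved together on day 8 shared no match in these windows.

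More of the 9 genes were higher at 3 mg/kg than in control rats on each sampling day up to day 8, and none on day 26. The day 3 count was 2 of 9, Tnfrsf12a and Cd24 (background 5.57% of all genes higher and 4.28% lower). The day 5 count was 5 of 9, with Vim, Cd44 and Anxa2 added (5.31% higher, 3.49% lower). The day 8 count was 8 of 9, all but Vcam1 (21.4% higher, 15.9% lower), and the day 26 count was 0 of 9 (0.556% higher, 0.197% lower), with 2 at an unadjusted p under 0.05. None of the 9 was called lower. As the 9 were chosen with earlier results of these data known, the counts are not an independent test against the shares of all genes. Changes are differences of log2(signal + 16) between group means, with the standard error of a limma fit that pools the spread over the 12 groups, and a gene was called at an adjusted p under 0.05 (Benjamini-Hochberg over all genes). The median change of the 9 was 0.21 (day 3), 0.44 (day 5), 0.91 (day 8) and 0.14 (day 26), where the median of all genes lay between 0.00 and 0.04. Animals of the 3 mg/kg and control groups did not overlap, with treated rats higher, for 1, 6, 7 and 1 of the 9 genes in the same order of days (5.69%, 5.29%, 9.41% and 3.62% of all genes). Both doses of a day were set against the same control rats. Fewer cells of a type and less RNA per cell cannot be told apart in these homogenates, and neither can more of either.

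**Figure D1:**
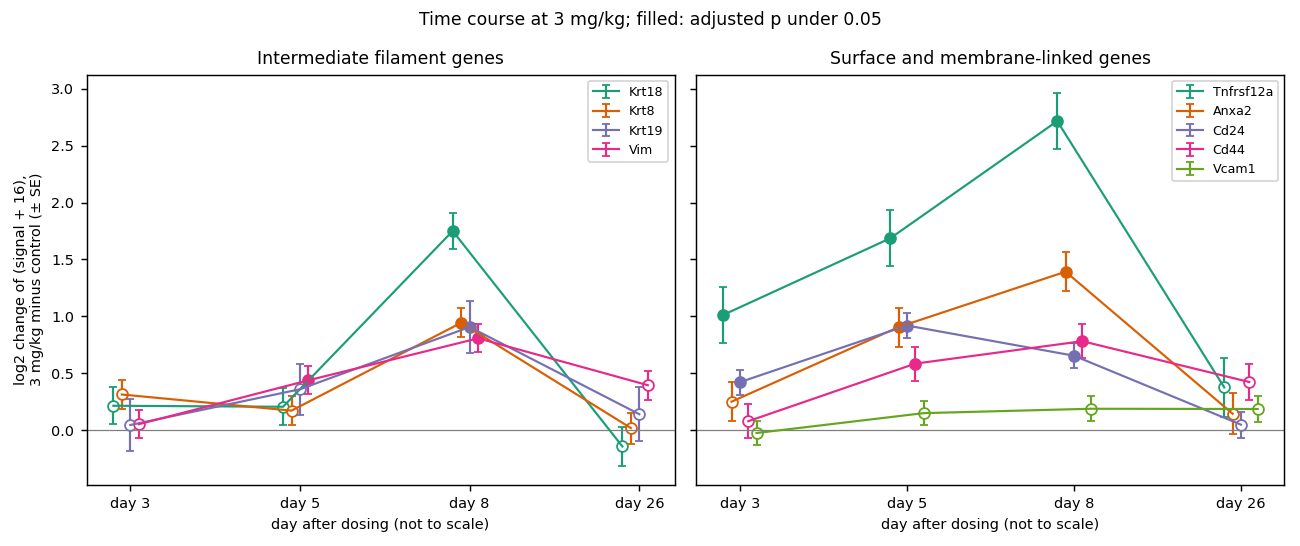
Change at 3 mg/kg against same-day control rats (y axis, log2 of signal + 16, with the standard error of the fit) by day (x axis, evenly spaced), for the intermediate filament genes on the left and the others on the right; filled points have an adjusted p under 0.05. Tnfrsf12a is filled on days 3, 5 and 8 and reaches 2.72, Krt8 and Krt18 are filled on day 8 alone, and Cd24 is highest on day 5.

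Krt18 and Krt8, the keratin pair, were called on day 8 and on no other day. On day 8, Krt18 had signals of 289.5, 805, 221, 348 and 437 in the rats given 3 mg/kg (replicates 1 to 5), against 102, 92.7, 112, 98.3 and 105 in control rats. The lowest treated rat lay above the highest control, and replicate 2 stood far above the others. Krt18 rose by 1.75 ± 0.16 (adjusted p = 5.63e-12, limma, n = 5 per group). Fitted on these 2 groups by themselves, its adjusted p was 0.000894 (limma). Krt8 had signals of 852, 1774, 578, 1091 and 1157 at 3 mg/kg on day 8, against 536, 555, 514, 497 and 515 in control rats. All 5 treated rats were above every control, replicate 3 by little. Krt8 rose by 0.94 ± 0.13 (adjusted p = 6.28e-08, limma), and in a fit of these 2 groups its adjusted p was 0.011. The treated rats varied more than the controls. Their log2 SD was 0.68 against 0.09 for Krt18, and 0.59 against 0.06 for Krt8. The order of the 5 rats was the same for both genes, with replicate 2 highest, then 5, 4, 1 and 3.

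Before day 8 neither keratin was called. Krt18 had 153, 129, 111, 119 and 121 at 3 mg/kg on day 5, against 113, 121, 107, 104 and 94.1 in control rats, and the groups overlapped (0.21 ± 0.16, adjusted p = 0.473, limma). Krt8 on day 5 had 619, 631, 591, 667 and 657, against 570.2, 574, 558, 562 and 536. All 5 treated rats were above the controls, yet the change was 0.17 ± 0.13 (adjusted p = 0.448). Fitted on these 2 groups by themselves, its adjusted p was 0.0368. On day 3 the changes were 0.21 ± 0.16 for Krt18 and 0.31 ± 0.13 for Krt8 (adjusted p = 0.414 and 0.11, limma). The step of the 3 mg/kg effect between days 5 and 8, tested as an interaction, was 1.54 ± 0.23 for Krt18 (adjusted p = 1.15e-05) and 0.77 ± 0.18 for Krt8 (adjusted p = 0.00241), both higher on day 8 (8.65% of all genes had a called increase of the effect). Over the 12 groups, the mean Krt18 signal at 3 mg/kg on day 8, 420.2, was followed by 126.9 at 3 mg/kg on day 5, a gap of 1.48 on the log2 scale. The other 11 groups, from 92.05 to 126.9, followed each other by gaps of at most 0.11.

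Krt19, a keratin of simple and ductal epithelia, varied widely among control rats. Its day 8 signals were 115, 118, 57.4, 91 and 152 at 3 mg/kg, against 69.3, 93.6, 33.8, 32 and 28.9 in control rats. Of the treated rats 3 lay above every control, and 2 controls lay above the lowest treated rat. Krt19 rose by 0.91 ± 0.23 (adjusted p = 0.00123, limma), and with the 2 groups fitted by themselves its adjusted p was 0.0338. Its level also differed between control days, with a mean of 87.4 ± 35.9 on day 3 and 39.8 ± 7.71 on day 5 (SD, n = 5 each), a difference that was not tested. The treated rats of day 3, at 87.4 ± 16.6, had the same mean as the controls of that day. With 64 added to the signal before the log in place of 16, the day 8 change was 0.57.

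Vimentin was called on days 5 and 8. On day 5, Vim had 666, 461, 545, 418 and 432 at 3 mg/kg, against 343, 337, 364, 371 and 402 in control rats. The groups did not overlap, and the change was 0.44 ± 0.12 (adjusted p = 0.0158, limma). Without replicate 1 of the treated rats, the highest, it was 0.33 and its adjusted p was 0.102. On day 8, Vim had 960.4, 618, 590.5, 487 and 578 at 3 mg/kg, against 359, 372, 328, 342 and 366. Every treated rat was again above every control, with replicate 1 highest by far and replicate 4 lowest. Vim rose by 0.81 ± 0.12 on day 8 (adjusted p = 5.24e-07). Between days 5 and 8 its effect changed by 0.37 ± 0.17 (adjusted p = 0.133), and by 0.47 without that day 5 rat (adjusted p = 0.0463). On day 3 the groups overlapped, at 0.05 ± 0.12 (adjusted p = 0.826).

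**Figure D2:**
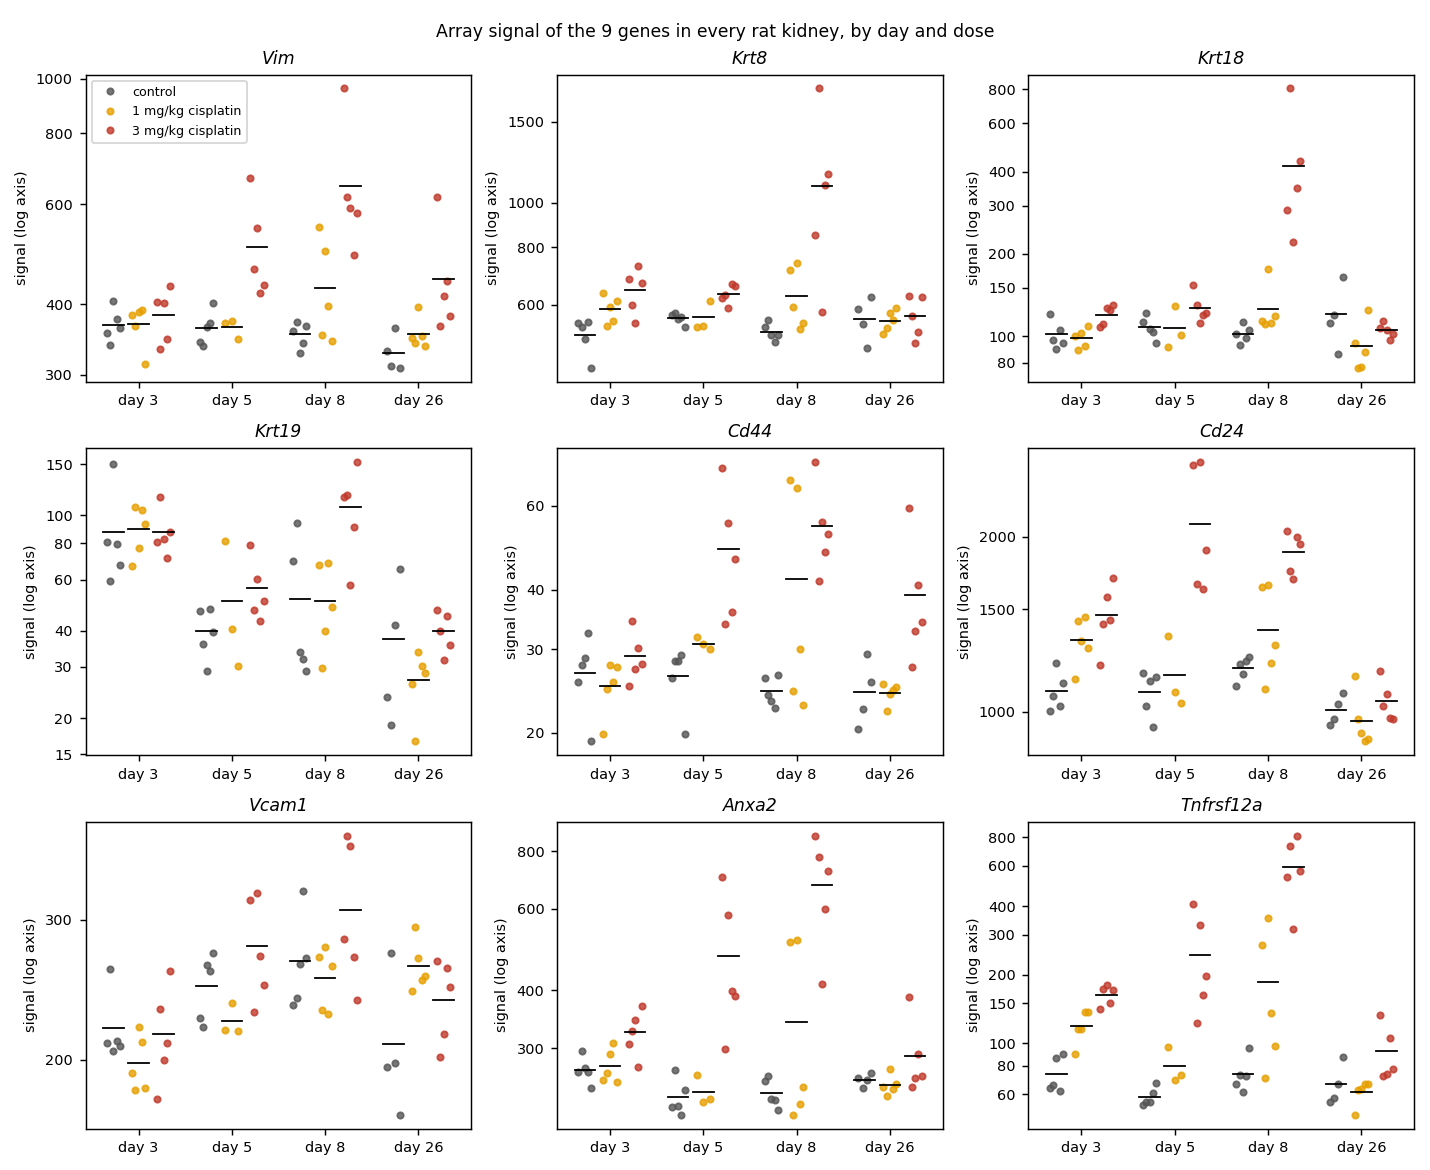
Signal of each of the 9 genes in every rat (y axis, log scale) by day (x axis), with control rats, 1 mg/kg and 3 mg/kg from left to right within a day; points are animals and bars are group means. On day 8 the 5 rats given 3 mg/kg lie above all controls for 7 of the 9 genes, and Krt19 and Vcam1 overlap.

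Tnfrsf12a, which encodes the TWEAK receptor Fn14, was called on days 3, 5 and 8. Its day 3 signals were 142, 174, 179.9, 149.8 and 172 at 3 mg/kg, against 63.9, 65.5, 86.6, 61.7 and 89.6 in control rats. The groups were well apart, and the treated rats lay close together. Tnfrsf12a rose by 1.01 ± 0.25 (adjusted p = 0.00529, limma). By day 5 the signals were 409, 123, 329.7, 163 and 197 at 3 mg/kg, against 53.9, 55.1, 55.6, 60.3 and 67.2, and it rose by 1.69 ± 0.25 (adjusted p = 3.9e-06). Replicates 1 and 3 were higher than the other treated rats. The day 8 signals were 539, 733, 318, 815 and 569.9, against 66.2, 72.4, 61.2, 72 and 95.7, and it rose by 2.72 ± 0.25 (adjusted p = 3.06e-12). Replicate 3 was the lowest treated rat, as it was for both keratins. The effect was larger on day 8 than on day 5 by 1.03 ± 0.35 (adjusted p = 0.0338). That step was not called with no offset (adjusted p = 0.056), when only the compared groups were fitted (adjusted p = 0.0657) and without any one of 7 animals.

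Anxa2 was called on days 5 and 8. Its day 5 signals were 703, 299, 583, 399 and 389 at 3 mg/kg, against 224, 269, 224, 215 and 244 in control rats. The order of the treated rats was nearly that of Tnfrsf12a, with replicates 1 and 3 highest and 2 lowest. Anxa2 rose by 0.91 ± 0.17 (adjusted p = 0.000345, limma). The day 8 signals were 864, 777, 412, 601 and 724, against 255, 261, 233, 232 and 220.1, without overlap. The rise was 1.39 ± 0.17 (adjusted p = 7.22e-09). A second Anxa2 probe set on the array was dim throughout, with signals of 0.452 to 12.9, and was not used.

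Cd44, the hyaluronan receptor, was dim, and the size of its change moved with the offset. Its day 5 signals were 72, 33.9, 55.4, 35.9 and 46.4 at 3 mg/kg, against 26, 28.3, 28.3, 29.1 and 19.9 in control rats. No treated rat fell within the control range of this probe set. Cd44 rose by 0.58 ± 0.15 (adjusted p = 0.00785, limma), and without replicate 1 by 0.47 (adjusted p = 0.0608). Its day 8 signals were 74.2, 41.7, 55.5, 48.1 and 52.3, against 26.1, 24.1, 23.3, 22.6 and 26.5, and it rose by 0.78 ± 0.15 (adjusted p = 3.66e-05). With an offset of 64 the changes were 0.31 on day 5 and 0.41 on day 8, and with none 0.84 and 1.13. A second Cd44 probe set, dimmer still, had 63.3, 36.9, 32.8, 38 and 49.2 at 3 mg/kg on day 8, against 8.63, 11.2, 14.7, 16.5 and 10.5 in control rats. Both probe sets were highest in replicate 1, and the second rose by 1.07 ± 0.15 (adjusted p = 1.12e-07). On day 5 the second rose by 0.61 ± 0.15 (adjusted p = 0.00672, limma), but its groups overlapped. Treated replicate 2 had 18.5, where control rats had 9.58 to 19.8.

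Cd24, the surface glycoprotein of immature epithelia, was the one member with its highest mean before day 8. Its day 3 signals were 1203, 1418, 1574, 1438 and 1698 at 3 mg/kg, against 1004, 1066, 1213, 1025 and 1123 in control rats. Replicate 1 overlapped with the highest control and the other 4 did not, and Cd24 rose by 0.42 ± 0.11 (adjusted p = 0.00823, limma). At day 5 they were 2651, 1660.3, 2686, 1629 and 1894, against 1165, 1022, 1132, 944 and 1146. Replicates 1 and 3 stood apart, as they did for Anxa2 and Tnfrsf12a, and Cd24 rose by 0.92 ± 0.11 (adjusted p = 4e-08). At day 8 they were 2049, 1745, 1693, 1998 and 1943, against 1108, 1210.3, 1164, 1224 and 1244, a rise of 0.65 ± 0.11 (adjusted p = 3.6e-06). The means of days 5 and 8, 2104 and 1885, differed by 0.13 on the log2 scale, less than the SD of 0.35 on day 5. The effect did not differ between these days beyond the threshold (-0.27 ± 0.15, adjusted p = 0.238).

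Vcam1, the integrin ligand, was not called in any comparison with control rats. Its day 8 signals were 283, 383, 371, 269 and 237 at 3 mg/kg, against 235, 239, 264, 326 and 268. Replicates 2 and 3 were above every control and the other 3 were within the control range. The change was 0.19 ± 0.11 (adjusted p = 0.17, limma), with a 95% interval of -0.03 to 0.40 from the pooled spread. The log2 SD of these 2 groups was 0.29 (treated) and 0.18 (control), so this interval may be too narrow. A rise of up to 0.40 or somewhat more is within the error. The changes at 3 mg/kg on days 3, 5 and 26 were -0.03, 0.15 and 0.19. The largest Vcam1 change against control rats was at 1 mg/kg on day 26, 0.32 ± 0.11, with a 95% interval of 0.09 to 0.55. Its unadjusted p was 0.00677 and its adjusted p 0.619 (limma), and the groups overlapped.

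The doses were also set against each other. On day 8, 7 of 9 genes were higher at 3 mg/kg than at 1 mg/kg (12.1% of all genes were higher), with Tnfrsf12a at 1.75 ± 0.25 (adjusted p = 4.26e-07, limma) and Krt18 at 1.503 ± 0.16 (adjusted p = 1.67e-09). The others were Anxa2 at 1.01, Krt19 at 0.86, Krt8 at 0.71, Vim at 0.57 and Cd24 at 0.46. Cd44 and Vcam1 differed by 0.34 and 0.25 (adjusted p = 0.0883 and 0.0871), and the second Cd44 probe set by 0.69 (adjusted p = 0.000481). Vcam1 reached 0.33 (adjusted p = 0.0255) without replicate 5 at 3 mg/kg. With the 2 day 8 groups fitted by themselves, 4 of the 7 calls were kept, and those of Vim, Krt8 and Anxa2 were lost. On day 5, 3 of 9 were higher, Cd24, Anxa2 and Tnfrsf12a (2.59% of all genes), of which Cd24 alone was kept in such a fit. On days 3 and 26, 0 of 9 were called (1.56% and 0% of all genes higher), with 0 and 2 at an unadjusted p under 0.05.

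The rats given 1 mg/kg showed 1 called change against control rats in all, Tnfrsf12a on day 8 (0.428% of all genes were higher and 0.0942% lower). On days 3, 5 and 26, 0 of 9 were called (0.0856%, 0.0171% and 0.00856% of all genes higher, 0.00856%, 0% and 0% lower), with 2, 0 and 1 at an unadjusted p under 0.05. On day 3 Tnfrsf12a had 89.8, 116, 115, 138 and 137 at 1 mg/kg, against 63.9, 65.5, 86.6, 61.7 and 89.6, just without overlap (1 of 9 genes; 0.916% of all genes), at 0.59 ± 0.25 (adjusted p = 0.697, limma). Tnfrsf12a and Cd44 did not overlap on day 5 (2 of 9, against 1.67% of all genes), with 3 treated rats. For Cd44 the gap was narrow, from 29.1 in the highest control to 29.97 in the lowest treated rat, at 0.15 ± 0.17. The second Cd44 probe set overlapped, with 11.4 in treated replicate 3 and 19.8 in the highest control. On day 8 Tnfrsf12a had 271, 70.4, 355, 136 and 97.6 at 1 mg/kg, against 66.2, 72.4, 61.2, 72 and 95.7. Replicates 1 and 3 were high, 4 was between, and 2 and 5 were near or within the control range. The change was 0.97 ± 0.25 (adjusted p = 0.0481, limma). Without replicate 1 it was 0.79 (adjusted p = 0.209), and without replicate 3 it was 0.70 (adjusted p = 0.329). The same 2 rats were the highest of the group for Vim, Krt8, Cd44, Cd24 and Anxa2. Anxa2, for example, had 508, 215, 515, 227 and 247, against a control range of 220.1 to 261, and Cd44 had 67.9, 24.5, 65.4, 30.1 and 22.9, against 22.6 to 26.5. Both genes in these 2 rats were within the range of the rats given 3 mg/kg. Krt18 divided the 2 rats: it had 114, 111, 176, 111 and 118 at 1 mg/kg, so that replicate 3 was high and replicate 1 was near the highest control of 112.

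**Figure D3:**
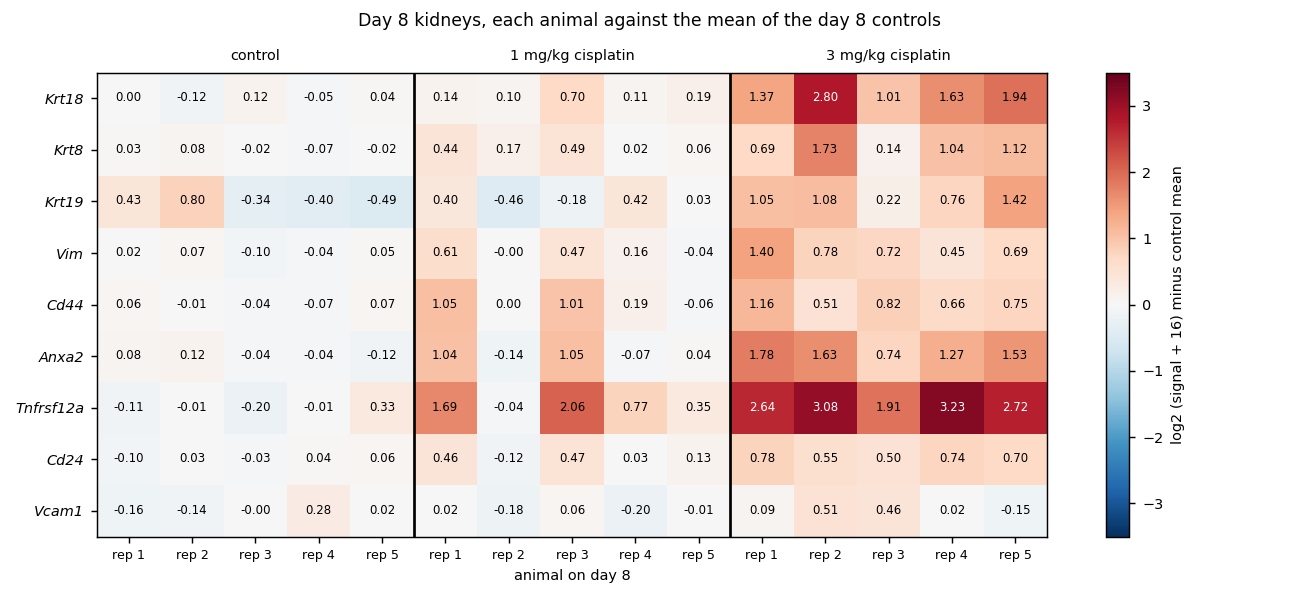
Difference of log2(signal + 16) from the mean of the day 8 control rats (colour and number) for each gene (rows) and each day 8 rat (columns, control, 1 mg/kg and 3 mg/kg from left to right). Replicates 1 and 3 at 1 mg/kg are above 0.4 for Vim, Krt8, Cd44, Cd24, Anxa2 and Tnfrsf12a, and at 3 mg/kg the highest rat is replicate 2 for Krt8 and Krt18 and replicate 1 for Vim and Cd44.

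Among the 3 mg/kg rats of day 8 the members did not rank the animals alike. Vim, Cd44, Anxa2 and Cd24 were highest in replicate 1, and Krt8 and Krt18 in replicate 2. In replicate 2 the log2 difference from the control mean was 2.80 for Krt18 and 0.78 for Vim, and in replicate 1 it was 1.37 for Krt18 and 1.40 for Vim. Umod, the uromodulin gene of the thick ascending limb, had 785, 2.68, 921, 21.6 and 5.37 in replicates 1 to 5, against 2676, 3177, 2502, 2393 and 2606 in control rats. The 3 rats with the lowest Umod were the 3 with the highest Krt18 and Krt8. At 1 mg/kg the rat with the lowest Umod, 1157 in replicate 3, also had the highest Krt18. Havcr1, the injury marker KIM-1 of the proximal tubule, ran from 679.7 to 2177 in the same 3 mg/kg rats, against 1.73 to 10.2 in control rats, and its highest rat was replicate 1. The part of distal tubule RNA in the ranking was not tested.

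On day 26 Krt18 was within the control range, and Vim was not. At 3 mg/kg, Krt18 had 107, 113, 106, 97 and 102, against 112, 119, 85.9 and 165 in control rats, and all 5 treated rats were within the control range. Vim had 618, 366, 413, 439 and 381, against 331, 311, 362 and 309, with no overlap, at 0.39 ± 0.13 (adjusted p = 0.099, limma, n = 5 and 4). Cd44 had 59.4, 27.5, 32.7, 41 and 34.3, against 20.4, 22.4, 29.3 and 25.6, at 0.42 ± 0.16 (adjusted p = 0.156). Replicate 1 was the highest treated rat for Vim, Cd44, Anxa2 (386) and Tnfrsf12a (133), and it also had the highest Havcr1, 327, where control rats had 0.772 to 7.41. That rat also had the highest sums of fibroblast markers (2992), macrophage markers (2623) and lymphocyte markers (103) of the group. Over the 3 mg/kg rats of day 26 the macrophage sums ran from 1875.4 to 2623, against 1704 to 1875.02 in control rats, barely without overlap. Of 10 measured macrophage markers 0 were called on that day. The lymphocyte sums ran from 66.2 to 103, against 37.4 to 61.99, also without overlap. These low sums are of 5 measured markers from a list of 12, the others being dim, and 1 of the 5 was called higher (0.556% of all genes). The fibroblast sums overlapped, at 2228 to 2992, against 1854 to 2389. The part of these cells in the day 26 values of Vim and Cd44 was not tested. Between days 8 and 26 the 3 mg/kg effect fell by 2.34 ± 0.36 for Tnfrsf12a (adjusted p = 7.69e-06), by 1.89 ± 0.24 for Krt18 (adjusted p = 3.93e-07), by 1.25 ± 0.25 for Anxa2, by 0.92 ± 0.19 for Krt8 and by 0.61 ± 0.16 for Cd24 (7.66% of all genes had a called decrease). For Vim and Cd44 the falls of 0.41 ± 0.18 and 0.36 ± 0.22 were not called (adjusted p = 0.108 and 0.285). Without replicate 1 of the treated day 26 rats, the fall for Vim was 0.53 (adjusted p = 0.0232), and without replicate 4 of day 8 it was 0.50 (adjusted p = 0.0481). Krt19 fell short of a call at -0.77 ± 0.33 (adjusted p = 0.107), which became -0.97 without control replicate 2 of day 8 (adjusted p = 0.0343) and -0.94 without treated replicate 3 of that day (adjusted p = 0.033). Between days 3 and 5, 0 of 9 effects changed (1.52% of all genes), with 4 at an unadjusted p under 0.05.

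Over the 57 arrays the closest pair was Anxa2 and Tnfrsf12a, with r = 0.93, then Krt8 and Krt18 with r = 0.89, among 36 pairs from -0.18 to 0.93. The points share dose, day and the array's scaling, so these values describe the data and carry no test. After group means were removed, r was 0.81 for Anxa2 and Tnfrsf12a and 0.77 for Krt8 and Krt18. Without the day 8 arrays, leaving 42, it was 0.81 for Anxa2 and Tnfrsf12a but 0.39 for the keratins. Vim and Krt18 correlated at 0.61 over all arrays and at -0.07 once group means were removed.

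**Figure D4:**
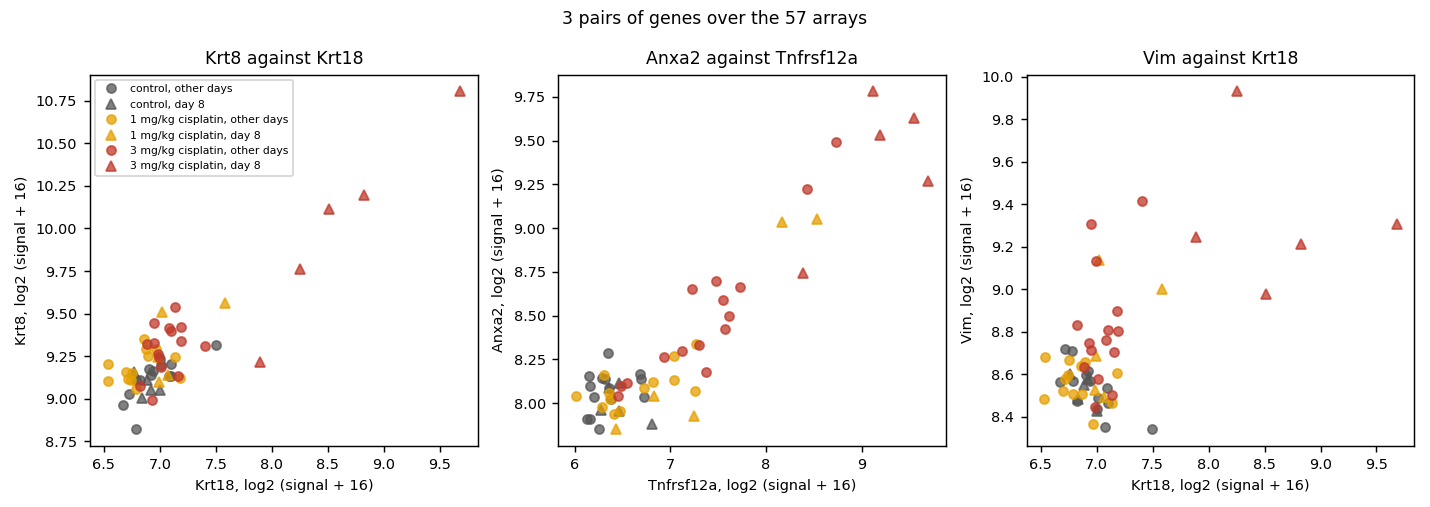
Log2(signal + 16) of Krt8 against Krt18, Anxa2 against Tnfrsf12a and Vim against Krt18 over the 57 arrays, with triangles for day 8 and circles for other days. The day 8 rats at 3 mg/kg hold the upper end of the keratin plot, and Anxa2 and Tnfrsf12a follow each other on other days as well. Vim is highest in a day 8 rat at 3 mg/kg that is not the highest for Krt18.

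For each member the 2 other genes closest to it over the 57 arrays were taken by Pearson's r. Lcn2, which encodes the injury marker lipocalin-2, was among the closest to 3 members, Anxa2 (r = 0.95), Tnfrsf12a (r = 0.93) and Vim (r = 0.88). Abcc2, an organic anion export pump, was the closest to both Krt8 and Krt18 (r = 0.90 and 0.91), followed by the tetraspanin Cd151 for Krt8 and the adipokine gene Rarres2 for Krt18. Cd24 was closest to the tubulin Tubb6 and to Havcr1 (r = 0.88 and 0.87), and Cd44 to Il24 and Bcl3 (r = 0.88 each). Vim was closest to Anxa1 (r = 0.89), Anxa2 was also close to Anxa7, and Tnfrsf12a was closest to the transcription factor gene Klf5 (r = 0.93). Krt19 and Vcam1 had weaker neighbours, Fam43a and the tight junction gene Cldn3 for Krt19 (r = 0.82 and 0.80), and the leukocyte actin regulator Coro1a and Olfml3 for Vcam1 (r = 0.71 and 0.66).

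The partners of the members moved in part. Day 8 calls at 3 mg/kg, given here and for the next lists, were higher for 10 and lower for 1 of 16 measured annexin and S100 genes, where 21.4% of all genes were higher and 15.9% lower. The median change of these 16 was 0.36, against 0.04 for all genes. S100a6 rose by 2.18 ± 0.20, S100a11 by 1.32 ± 0.14, and S100a10, which encodes the partner of annexin A2, by 1.12 ± 0.16 (adjusted p = 2.04e-07, limma). Of 19 other intermediate filament and desmosome genes, 9 rose and 1 fell (median 0.27; all genes 21.4% and 15.9%), among them the filament linkers Ppl by 1.14 ± 0.11 and Plec by 1.01 ± 0.12. The gene that fell was Krt7, a keratin of ductal epithelia, at -0.56 ± 0.07 (adjusted p = 2.23e-08), so its direction was opposite to that of Krt8 and Krt18. Krt7 had mean signals of 755 in rats given 3 mg/kg and 1119 in control rats.

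Of 18 genes of TWEAK and NF-kappaB signalling, 6 rose and 0 fell on day 8 (median 0.18), where 21.4% of all genes rose and 15.9% fell. Bcl3, a nuclear cofactor of NF-kappaB, rose by 1.30 ± 0.17, Nfkbiz by 0.91 ± 0.21, the apoptosis inhibitor Birc3 by 0.62 ± 0.15 and the subunit gene Rela by 0.31 ± 0.07. Tnfsf12, the gene of the ligand TWEAK itself, named here after its values were seen, was at 0.08 ± 0.08 (adjusted p = 0.477, limma). Of 14 genes for CD44 ligands, hyaluronan enzymes and membrane linkers, 5 rose and 1 fell (median 0.00), against the same shares of all genes. Spp1, which encodes the CD44 ligand osteopontin, rose by 2.54 ± 0.29 at 3 mg/kg and by 1.77 at 1 mg/kg (adjusted p = 0.000294) on day 8, and Hmmr, a further hyaluronan receptor, rose by 0.55 ± 0.11 at 3 mg/kg. Of 17 adhesion genes, 6 rose and 2 fell (median 0.13), and the share that fell was near the 15.9% of all genes. Icam1, the leukocyte ligand that is often studied with VCAM-1, rose by 0.95 ± 0.14 and the epithelial adhesion gene Epcam by 0.46 ± 0.09, and the kidney cadherin Cdh16 fell by 0.62 ± 0.07.

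Of 12 genes linked to epithelial to mesenchymal transition, 6 rose and 0 fell on day 8 (median 0.37), where 21.4% of all genes rose and 15.9% fell. Among them the matrix protein gene Fn1 (fibronectin) was at 1.11 ± 0.15 and Tgfb2 at 0.61 ± 0.18. Of 12 embryonic tubule and progenitor genes, 3 rose and 1 fell (median 0.09), which is near the shares of all genes and is not a result about the list. Among them Emx2 rose by 0.74 ± 0.09 and Sox4 by 0.57 ± 0.12, both transcription factor genes, and Wt1 fell by 0.23 ± 0.09. Of 22 genes of the differentiated proximal tubule, 6 fell and 4 rose (median 0.00), where 15.9% of all genes fell and 21.4% rose. The share that rose was near that of all genes. The cation transporter Slc22a2 fell by 1.85 ± 0.20, the brush border peptidase Anpep by 1.32 ± 0.12 and the glucose transporter Slc5a2 by 1.25 ± 0.15. The phosphate transporter Slc34a1 was at 0.16 ± 0.08 (adjusted p = 0.1, limma), so the proximal tubule list did not move one way.

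Markers of other cells moved on the same day, when 21.4% of all genes were higher and 15.9% lower, and the counts of each list are to be read against these shares. Of 11 fibroblast markers (Postn was dim), whose cells make vimentin, 6 were higher and 0 lower at 3 mg/kg, and their summed signal ran from 3642 to 4946, against 2491 to 2797 in control rats. Tagln rose by 1.53 ± 0.22 and decorin Dcn by 1.21 ± 0.17. Of 10 macrophage markers (Cd163, Itgam and Msr1 were dim), whose cells express Vim and Cd44, 6 rose and 0 fell, with sums of 2393 to 3559, against 1800 to 2129. Of 8 markers of the loop of Henle and distal tubule, 7 fell and 1 rose, with sums of 773 to 5772, against 10568 to 11872, and of 12 collecting duct markers, cells rich in Krt8, Krt18 and Krt19, 5 fell and 1 rose, with sums of 2322 to 4464, against 4755 to 5457. Of 10 endothelial markers (Cdh5 was dim) 3 fell and 0 rose, with sums of 1687 to 1961, against 1919 to 2045. The part of these cells in the members' rise was not tested. In the same rats the highest fibroblast sum, 4946, was in replicate 3, which had the lowest Krt8, Krt18 and Tnfrsf12a of the treated rats. Replicate 1, highest for Vim and Cd44, had the highest macrophage sum, 3559, and the next highest fibroblast sum, 4487. At 1 mg/kg on day 8, replicates 1 and 3 had the highest fibroblast sums, 3617 and 4147, where the other 3 had 2216 to 2519. Urothelial markers, for tissue of the renal pelvis, were dim, with sums of 29.7 to 52.8, against 22.2 to 39.5, and none of the 4 measured was called (Upk1a, Upk1b, Upk2 and Upk3b were dim). Of 5 measured lymphocyte markers 0 were called, with sums of 36.6 to 105, against 45.3 to 56.2, and of 5 podocyte markers 1 rose and 1 fell, near the shares of all genes, with sums of 766 to 1066, against 751 to 966.

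Array quality was followed through the ratio of 3′ to 5′ actin control signals. On day 8 it was 5.30 ± 0.53 at 3 mg/kg and 5.32 ± 0.48 in control rats (SD, n = 5 each). On day 3 it was 5.89 ± 0.10 at 3 mg/kg and 4.66 ± 0.25 in control rats, without overlap. With the ratio as a covariate, Tnfrsf12a and Cd24 on day 3 were at 1.07 and 0.45 (adjusted p = 0.0196 and 0.0253, limma). The highest ratio of all arrays, 8.58, was in replicate 1 at 1 mg/kg on day 8, one of the 2 rats with raised members, and replicate 3 had 4.52.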

How the data were processed

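Kidney RNA of 57 rats was measured on 1-colour Affymetrix arrays, grouped and numbered from the labels. The authors deposited an intensity for each probe set on each array, a MAS5 signal per the submitters' processing notes, whose version and background settings the sources used here do not give. With 2% trimmed from each end, every array averaged 99.99, a common scale that hides any change of total RNA. Median signals ran from 20.3 to 26.2, and the number of arrays limits the precision. The design text gives 6 rats per group, and 3 to 5 were analysed here.

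Of 31099 probe sets, 57 controls were left out and 21829 kept (above the 40th percentile of at least 3 arrays). The platform annotation named 1 gene for 20826, several for 436 (not used for names) and none for 9780. The brightest probe set per gene gave 11683 genes. log2(signal + 16) was fitted over all arrays by limma (version 3.58.1, R 4.3.3), as 12 group means with an intensity trend, with two-sided tests adjusted by Benjamini-Hochberg per comparison; the code was tested on simulated data. The offset shrinks the log2 changes of dim genes. Pooling the spread makes p-values too small for a gene that varies more in the groups compared.

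Members and lists were chosen with earlier results of these data known. Genes named were the 9 members, the 2 closest genes to each, up to 4 called genes per list with the largest day 8 change, Havcr1, Lcn2, Spp1, Umod, Slc34a1, and the tissue check. Promoters came from RefSeq (GRCr8). Alternatives were other offsets, filters, scalings, probe set rules, variance models, array weights, the actin ratio, a replicate block, the compared groups by themselves, and leaving out each replicate. The labels give no link between same-numbered samples beyond the number.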

Additional observations from a re-analysis of the deposited data

Results flagged for a closer look

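Over the 9 genes in the groups of 4 or 5 rats, 99 sets of values were examined, and in 4 of them 1 animal stood apart from the others by Dixon's criterion, where chance gives about 1 in 20. Krt18 was 175.5 in replicate 3 at 1 mg/kg on day 8, where the other 4 rats had 111 to 118. Vim was 394.6 in replicate 3 at 1 mg/kg on day 26, where the others had 338 to 351. Tnfrsf12a was 48.65 in replicate 1 at 1 mg/kg on day 26, below the others at 62.2 to 66.5. Vcam1 was 260.3 in control replicate 2 on day 3, where the others had 205 to 211.

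The 3 mg/kg effect differed between days by a tested interaction for several genes. From day 5 to day 8 it grew by 0.77 for Krt8, 1.54 for Krt18 and 1.03 for Tnfrsf12a (adjusted p = 0.00241, 1.15e-05 and 0.0338, limma). From day 8 to day 26 the difference was -0.92 for Krt8, -1.89 for Krt18, -0.61 for Cd24, -1.25 for Anxa2 and -2.34 for Tnfrsf12a (adjusted p from 3.93e-07 to 0.00552).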

How the results depend on the processing

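The 135 member results had 3447 values under alternatives. Of these, 3394 kept direction and side of the threshold, 31 lost the call, 22 gained one and 0 reversed. At 1 mg/kg on day 8 the count was 0 in place of 1 with an offset of 64, quantile normalization, 75th percentile centring, no filter, every kept probe set, eBayes without trend, robust eBayes, array weights and the compared groups by themselves, and 0 to 1 when single replicates were left out. With the compared groups by themselves, the day 3 count at 3 mg/kg was 4 (Krt8 and Anxa2 added), and 3 against 1 mg/kg gave 1 on day 3, 1 on day 5 and 4 on day 8. Leaving out replicates gave 3 to 5 for 3 mg/kg on day 5, and 0 to 1 for the step from day 3 to day 5, where Cd24 reached 0.58 (adjusted p = 0.0309, limma) without treated replicate 4 of day 5. Cd44 at 3 against 1 mg/kg on day 8 was called with the mean of its probe sets (0.52), array weights (0.54) or without replicate 1 or 3 at 1 mg/kg (0.50 and 0.49). Same-numbered treated and control samples correlated at -0.17 to 0.26 over all genes after group means were removed, with 6 of 36 pairs above 0.1. With the replicate block, 1 of 135 member results had another call, Vim at 3 against 1 mg/kg on day 5 (0.48, adjusted p = 0.0168, limma). Over all genes, 4382 were called at 3 mg/kg on day 8, against 4360 without the block. At 1 mg/kg on day 8 there were 86 against 61. At 3 against 1 mg/kg there were 562 against 464 on day 5, and 13 against 0 on day 26. No scaling moved the median of all genes by more than 0.03. Cd44 and Krt19 were dim, which limits the size of their changes. The same limit holds for Tnfrsf12a, whose control means (58.4 to 73.5) lay within those of Krt19 (37.4 to 87.4). At 1 mg/kg on day 8 its change was 0.97, and 0.73 with an offset of 64.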
